A study of Mus musculus with 39 samples.

Results

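Oligodendrocyte precursor cells are the dividing glial cells of the adult brain that give rise to myelinating oligodendrocytes. The 7 genes described here are widely used to recognise these cells or their lineage: Pdgfra, Cspg4, Neu4, Olig1, Olig2, Sox10 and Nkx2-2. They were found by matching the Ensembl identifiers of the deposited count tables, without their versions, to these symbols, and all 7 were found among the 51826 genes listed. RNA was counted in 39 libraries from micropunches of the nucleus accumbens (NAc), a ventral striatal region rich in medium spiny neurons, and the basolateral amygdala (BLA), a region rich in glutamatergic neurons. The groups were 9 NAc libraries of Lmo4gt/+ mice, 10 NAc libraries of wild-type (WT) mice, 9 BLA libraries of Lmo4gt/+ mice and 11 BLA libraries of WT mice. Lmo4gt/+ mice carry 1 gene-trap allele of Lmo4, which encodes a LIM-domain transcription cofactor. The study compared the genotypes to find candidate targets of LMO4. All mice were C57BL/6J and 8 to 12 weeks old. Frozen brains were cut at 300 µm, each region was punched out, and polyA RNA was sequenced. The labels do not give sex, litter or batch.

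In the oligodendrocyte lineage, the receptor PDGFRA receives the growth factor PDGF-A, which keeps precursors alive and dividing. Pdgfra and Cspg4 mark the precursor stage and are shut off as cells differentiate, although fibroblasts use Pdgfra and pericytes use Cspg4 as well. Olig1, Olig2 and Sox10 encode transcription factors that precursors share with mature oligodendrocytes, Nkx2-2 encodes a homeobox factor linked to the start of differentiation, and Neu4 encodes a sialidase that trims polysialic acid. The list therefore holds genes of the precursor stage and genes of the whole lineage.

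Pdgfra (ENSMUSG00000029231.15) lies on chromosome 5, positions 75548316 to 75594229, plus strand. Cspg4 (ENSMUSG00000032911.6), which encodes the NG2 proteoglycan, lies on chromosome 9, positions 56712911 to 56747677, plus strand. Neu4 (ENSMUSG00000034000.15) lies on chromosome 1, positions 95917070 to 95924903, plus strand. Olig2 (ENSMUSG00000039830.8) and Olig1 (ENSMUSG00000046160.6) are neighbours on chromosome 16, at positions 91225795 to 91228922 and 91270014 to 91272184, both on the plus strand. Sox10 (ENSMUSG00000033006.9) lies on chromosome 15, positions 78985343 to 78994920, minus strand. Nkx2-2 (ENSMUSG00000027434.11) lies on chromosome 2, positions 147003282 to 147019979, minus strand. These are gene limits in GENCODE vM1 on NCBIM37, the mm9 assembly, and all 7 are protein-coding. The limits of Nkx2-2 overlap the antisense gene Nkx2-2as and the transcript 6430503K07Rik, which held 930 and 191 reads over the 39 libraries, against 4881 for Nkx2-2. Whether counting used strand is not given in the sources used here, so reads from these overlapping genes cannot be told apart.

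Start regions are shown for 4 members: Olig2 and Nkx2-2, which were higher in the NAc in both genotypes, Pdgfra, which was lower there in both, and Cspg4, which was called lower in WT mice and not in Lmo4gt/+ mice. Olig1 and Sox10, also higher in the NAc, had no start region among the sequences available. The Neu4 window is not printed. It held 0 matches to the motifs listed below and had a GC content of 55.3%. Each run covers 250 bases before and 50 bases after the RefSeq start on GRCm38.p6, written 5′ to 3′ on the gene's strand. Capitals mark matches, on either strand, to CAGCTG (an E-box), ACAAAG or ACAATG (SOX-type), CAAGTG (NKX2-type), GGGCGG (GC box), CCAAT and TATAAA. The Olig2 window is chr16:91225300-91225599 (plus strand), the Nkx2-2 window chr2:147186353-147186652 (minus strand), the Pdgfra window chr5:75152001-75152300 (plus strand) and the Cspg4 window chr9:56864854-56865153 (plus strand).
Olig2: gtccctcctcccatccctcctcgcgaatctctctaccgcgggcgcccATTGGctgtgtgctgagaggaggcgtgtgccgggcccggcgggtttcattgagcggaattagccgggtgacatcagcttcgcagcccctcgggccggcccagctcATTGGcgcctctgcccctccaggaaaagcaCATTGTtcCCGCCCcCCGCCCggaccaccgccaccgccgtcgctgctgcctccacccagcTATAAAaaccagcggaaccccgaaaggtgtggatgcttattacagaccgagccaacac
Nkx2-2: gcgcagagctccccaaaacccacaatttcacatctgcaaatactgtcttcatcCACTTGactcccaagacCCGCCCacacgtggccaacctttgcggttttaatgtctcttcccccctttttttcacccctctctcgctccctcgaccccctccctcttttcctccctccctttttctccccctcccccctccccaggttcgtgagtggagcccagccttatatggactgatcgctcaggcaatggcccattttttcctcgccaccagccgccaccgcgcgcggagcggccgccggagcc
Pdgfra: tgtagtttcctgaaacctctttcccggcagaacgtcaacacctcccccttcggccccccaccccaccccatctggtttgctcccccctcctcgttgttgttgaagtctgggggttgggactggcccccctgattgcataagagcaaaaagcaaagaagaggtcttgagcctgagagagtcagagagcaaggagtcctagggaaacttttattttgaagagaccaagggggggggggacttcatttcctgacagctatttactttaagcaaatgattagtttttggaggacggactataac
Cspg4: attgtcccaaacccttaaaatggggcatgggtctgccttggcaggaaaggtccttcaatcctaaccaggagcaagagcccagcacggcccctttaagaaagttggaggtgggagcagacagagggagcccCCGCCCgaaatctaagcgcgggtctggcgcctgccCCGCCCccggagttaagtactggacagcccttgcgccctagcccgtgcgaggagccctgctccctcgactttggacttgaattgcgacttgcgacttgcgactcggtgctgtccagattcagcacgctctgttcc
The Olig2 window held 1 ACAATG, 2 GGGCGG, 2 CCAAT and 1 TATAAA. The Nkx2-2 window held 1 CAAGTG and 1 GGGCGG, the Cspg4 window held 2 GGGCGG, and the Pdgfra window held none of these letters. No match overlapped another. Among 32851 RefSeq start windows of the same length, 12.6% held ACAATG, 18.7% ACAAAG, 16.3% CAGCTG, 13.6% CAAGTG, 35.7% GGGCGG, 37.4% CCAAT and 13.6% TATAAA. The GC content was 65.0% for Olig2, 59.7% for Nkx2-2, 60.0% for Cspg4 and 51.0% for Pdgfra, against a median of 52.7% over all windows.

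Gene counts per library ran from 21255934 to 51021670. Of the members, Nkx2-2 had the fewest reads (50 to 269 per library) and Pdgfra the most in total (1643 to 5248 per library). All 7 passed the filter on low counts in every comparison. Lmo4, the trapped gene, averaged 55.1 ± 9.58 CPM, the gene's reads scaled to the gene reads of its library (SD, n = 9), in Lmo4gt/+ NAc against 90.0 ± 11.6 CPM (n = 10) in WT NAc, and 88.5 ± 12.7 CPM (n = 9) in Lmo4gt/+ BLA against 160 ± 9.67 CPM (n = 11) in WT BLA. NAc library 122 is Lmo4gt/+ by its title and wild type by its genotype field. It was grouped by title, and its 71.9 CPM of Lmo4 lay above the lowest WT NAc library (71.6 CPM). NAc library 149 of an Lmo4gt/+ mouse stood apart: 34.7% of 9893 well-counted genes lay more than 0.5 log2 units from the NAc median, against at most 12.2% in any other library, and genes with under 2 kb of exon were lower there (median -0.78 on the log2 scale), while those over 6 kb lay near it (0.07). Cspg4 has 8.05 kb of exon and Neu4 4.59 kb. Levels of neuron genes typical of the other region varied between libraries. Whether the punches held other tissue was not tested. The summed level of 6 glutamatergic neuron genes ran from 6.59 to 754 CPM in Lmo4gt/+ NAc and from 4.36 to 1198 CPM in WT NAc, and that of 7 medium spiny neuron genes ran from 213 to 717 CPM in Lmo4gt/+ BLA and from 222 to 668 CPM in WT BLA.

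All 7 genes were detected in every library, and Olig1 had the highest level per length in all 4 groups. Divided by exon length, so that genes can be compared, Olig1 averaged 43.2 ± 7.36 CPM per kb (SD, n = 9) in Lmo4gt/+ NAc and 50.8 ± 6.85 CPM per kb (n = 10) in WT NAc. In the BLA it averaged 32.7 ± 3.46 CPM per kb (n = 9) in Lmo4gt/+ mice and 32.5 ± 4.46 CPM per kb (n = 11) in WT mice. The rest of the order differed between the regions. In the NAc, Sox10 came next, overlapping Olig2 in WT mice, at 18.7 ± 3.57 CPM per kb in Lmo4gt/+ and 21.2 ± 4.13 CPM per kb in WT mice. Pdgfra and Olig2 followed and overlapped each other, with Pdgfra at 11.5 ± 1.03 and Olig2 at 10.6 ± 0.745 CPM per kb in Lmo4gt/+ NAc, and Pdgfra at 12.1 ± 1.08 and Olig2 at 12.5 ± 1.89 CPM per kb in WT NAc. In the BLA it was Pdgfra that came second, at 14.01 ± 1.04 CPM per kb in Lmo4gt/+ and 13.1 ± 1.14 CPM per kb in WT mice, above the overlapping pair of Sox10 and Olig2. Cspg4 came after these 4 genes in each group, between 5.25 and 5.94 CPM per kb on average. Neu4 and Nkx2-2 were the lowest 2, overlapping in the NAc. In the BLA all Nkx2-2 values per length lay under those of Neu4.

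**Figure D1:**
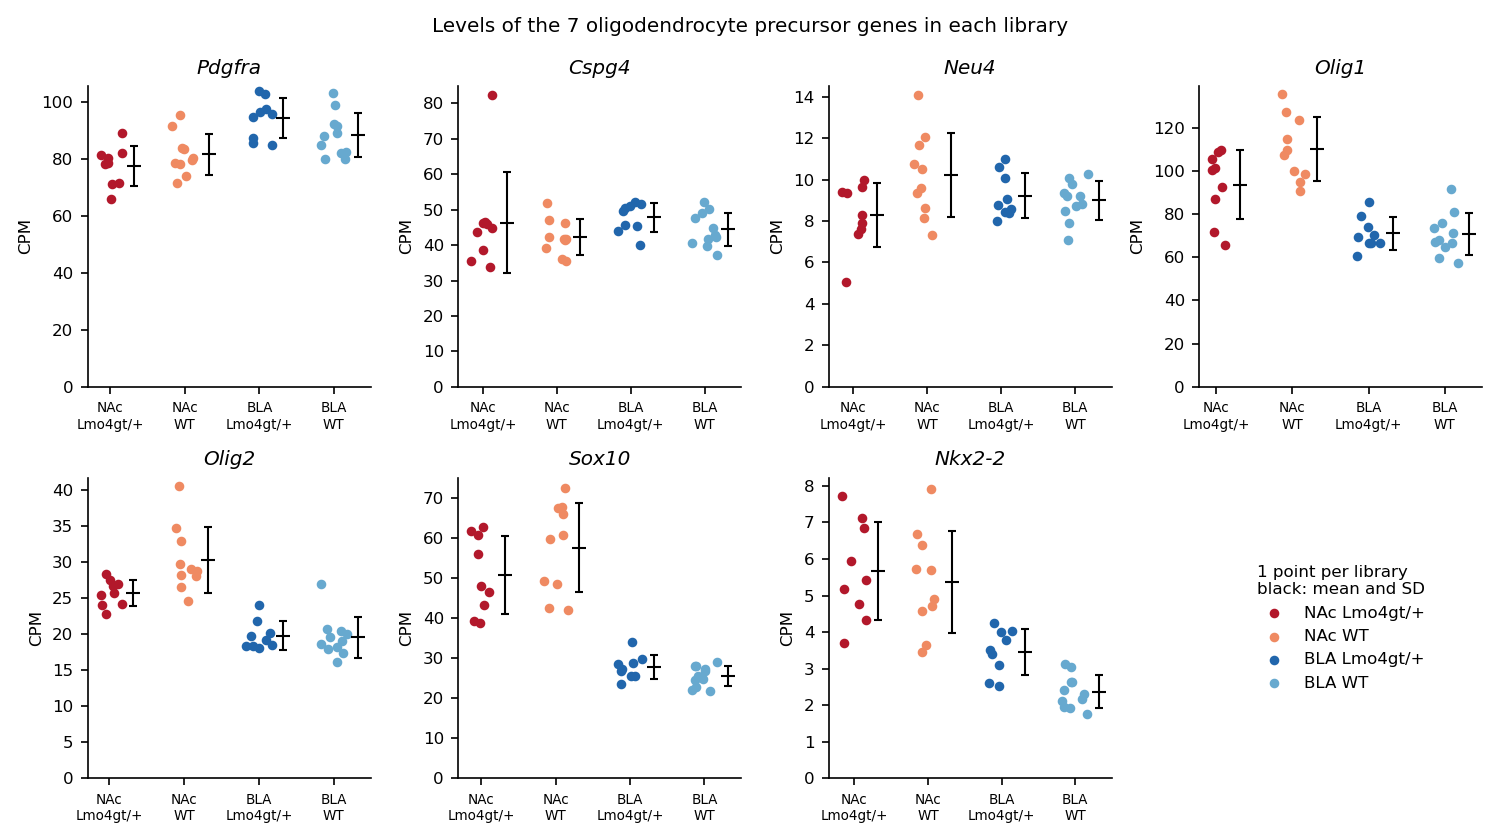
Level of each gene in each library, in CPM (linear axis), by region and genotype; each point is a library and the black bar and whiskers are the mean and SD of the group. Sox10 lay between 38.8 and 72.6 CPM in the NAc and between 21.7 and 34.01 CPM in the BLA, while Pdgfra overlapped between the regions and 1 Lmo4gt/+ NAc library stood out for Cspg4 at 82.4 CPM.

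The first comparison set the NAc against the BLA within mice. The transcription factor genes Olig1, Olig2, Sox10 and Nkx2-2 were higher in the NAc of both genotypes, from 1.24-fold for Olig1 and Olig2 in Lmo4gt/+ mice to 2.15-fold for Nkx2-2 in WT mice. The receptor gene Pdgfra was lower in the NAc of both genotypes, at an estimated 0.779-fold in Lmo4gt/+ mice and 0.860-fold in WT mice. Cspg4 was called lower in WT mice, and Neu4 was not called in either genotype. Levels were compared with edgeR's quasi-likelihood test with the mouse as a block, and p-values were adjusted by the Benjamini-Hochberg method over all genes tested, with a threshold of 0.05. Log2 fold changes are given with ± their standard error. Folds and log2 fold changes rest on libraries scaled by TMM factors, so they differ from ratios of the CPM printed here. In CPM the median NAc over BLA ratio in WT mice was 0.908 for Pdgfra, 0.941 for Cspg4 and 2.22 for Sox10. The estimated folds were 0.860, 0.886 and 2.07. In Lmo4gt/+ mice the Pdgfra ratio was 0.817. In Lmo4gt/+ mice 5 of 7 members were called, against 52.7% of the 17026 genes tested, 4 of them higher (26.2% of all genes) and 1 lower (26.4% of all genes). In WT mice 6 of 7 were called, against 59.6% of 16887 genes, 4 higher (31.1% of all genes) and 2 lower (28.5% of all genes). With so many of all genes called, these counts do not set the members apart. At an unadjusted p under 0.05 there were 6 of 7 members in each genotype, against 57.7% of all genes in Lmo4gt/+ and 63.6% in WT mice. The median log2 fold change of the members was 0.31 in Lmo4gt/+ and 0.53 in WT mice, against 0.01 and 0.04 over all genes tested. In bulk tissue, fewer cells of a type and less RNA per cell cannot be told apart.

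Pdgfra, the PDGF-A receptor and the most used marker of the precursor stage, had 66.0, 78.7 and 89.0 CPM (lowest, median, highest of 9) in Lmo4gt/+ NAc and 84.8, 95.9 and 104 CPM in Lmo4gt/+ BLA. Of the 9 NAc libraries, 8 lay below every BLA library, and the NAc punch was the lower one in 9 of 9 mice, a log2 fold change of -0.36 ± 0.07 (edgeR adjusted p = 0.000456). In WT mice Pdgfra had 71.5, 79.9 and 95.2 CPM in the 10 NAc libraries and 79.9, 88.1 and 103 CPM in the 11 BLA libraries. These ranges overlapped, with 5 NAc libraries under the lowest BLA one and the NAc punch lower in 8 of 10 mice. This came to a log2 fold change of -0.22 ± 0.05 (edgeR adjusted p = 0.00215).

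Cspg4, the NG2 proteoglycan gene, had 33.8, 44.7 and 82.4 CPM in Lmo4gt/+ NAc and 40.0, 49.5 and 52.2 CPM in Lmo4gt/+ BLA. The top NAc value was that of library 149, and the next NAc library had 46.4 CPM. With all mice the log2 fold change was -0.17 ± 0.14 (edgeR adjusted p = 0.327), and the NAc punch was lower in 7 of 9 mice. Without mouse 149, a setting added after its values were seen, it was -0.30 ± 0.07 and was called (edgeR adjusted p = 0.00302). Library 149 thus decided whether Cspg4 was called in Lmo4gt/+ mice. In WT mice Cspg4 had 35.4, 41.8 and 51.9 CPM in the NAc and 37.2, 42.9 and 52.2 CPM in the BLA, ranges that overlapped over most of their width. Its log2 fold change was -0.18 ± 0.05 (edgeR adjusted p = 0.00991), and the NAc punch was lower in 8 of 10 mice. With all 39 libraries in 1 model the same difference was not called (-0.17 ± 0.11, edgeR adjusted p = 0.186).

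Neu4, the sialidase gene, had 5.03, 8.29 and 9.97 CPM in Lmo4gt/+ NAc and 8.01, 8.77 and 11.0 CPM in Lmo4gt/+ BLA. The lowest value was again that of NAc library 149, and 4 NAc libraries lay under every BLA library. Its log2 fold change of -0.24 ± 0.10 missed the threshold (edgeR adjusted p = 0.0515); it was past the threshold in 3 of 10 alternative fits. In WT mice Neu4 had 7.33, 10.1 and 14.1 CPM in the NAc and 7.10, 9.18 and 10.3 CPM in the BLA. There 5 NAc libraries lay above every BLA library, and the log2 fold change was 0.08 ± 0.09 (edgeR adjusted p = 0.4997), with a 95% interval of -0.12 to 0.28.

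Olig1, a basic helix-loop-helix factor of the lineage, had 65.6, 100.5 and 109.6 CPM in Lmo4gt/+ NAc and 60.7, 69.2 and 85.4 CPM in Lmo4gt/+ BLA. Most NAc libraries, 7 of 9, lay above every BLA library, and the NAc punch was the higher one in 9 of 9 mice. This gave a log2 fold change of 0.31 ± 0.07 (edgeR adjusted p = 0.00134). In WT mice it had 90.5, 108.6 and 135 CPM in the NAc and 57.3, 68.1 and 91.4 CPM in the BLA. The ranges touched at their ends only, and the NAc was higher in 10 of 10 mice. Olig1 had a log2 fold change of 0.55 ± 0.07 (edgeR adjusted p = 8.77e-06).

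Olig2, which specifies the lineage and keeps it going, had 22.9, 25.7 and 28.4 CPM in Lmo4gt/+ NAc and 18.04, 19.2 and 24.1 CPM in Lmo4gt/+ BLA. Again 7 of 9 NAc libraries lay above every BLA library, and all 9 mice had more in the NAc. Olig2 had a log2 fold change of 0.31 ± 0.07 (edgeR adjusted p = 0.00194). In WT mice it had 24.7, 28.97 and 40.6 CPM in the NAc and 16.1, 19.1 and 27.02 CPM in the BLA. The overlap there came from BLA library 160, since the next BLA library had 20.7 CPM. In log2 terms the difference was 0.53 ± 0.07 (edgeR adjusted p = 4.33e-06), with the NAc higher in 10 of 10 mice.

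Sox10, a factor of precursors and of myelinating cells that drives myelin genes, had 38.8, 48.1 and 62.7 CPM in Lmo4gt/+ NAc and 23.5, 27.3 and 34.01 CPM in Lmo4gt/+ BLA. In WT mice it had 41.9, 60.1 and 72.6 CPM in the NAc and 21.7, 25.5 and 29.03 CPM in the BLA. The NAc and BLA ranges of Sox10 did not overlap in either genotype. How many of all genes had ranges apart in this way was not computed, for Sox10 or for the genes below. The log2 fold change was 0.78 ± 0.08 in Lmo4gt/+ mice (edgeR adjusted p = 5.73e-07) and 1.05 ± 0.09 in WT mice (edgeR adjusted p = 1.44e-07). All 9 and all 10 mice had more Sox10 in the NAc, with NAc over BLA ratios of 1.52 to 2.26 in Lmo4gt/+ and 1.54 to 3.11 in WT mice.

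Nkx2-2, the homeobox factor, had 3.702, 5.42 and 7.72 CPM in Lmo4gt/+ NAc and 2.51, 3.50 and 4.25 CPM in Lmo4gt/+ BLA. All but 1 of the 9 NAc libraries lay above every BLA library, and 8 of 9 mice had more in the NAc. Nkx2-2 in these mice had a log2 fold change of 0.63 ± 0.16 (edgeR adjusted p = 0.00329). In WT mice it had 3.46, 5.30 and 7.92 CPM in the NAc and 1.76, 2.31 and 3.12 CPM in the BLA, and every NAc library exceeded every BLA library. Nkx2-2 had a log2 fold change of 1.11 ± 0.15 (edgeR adjusted p = 7.31e-06), with the NAc higher in 10 of 10 mice.

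**Figure D2:**
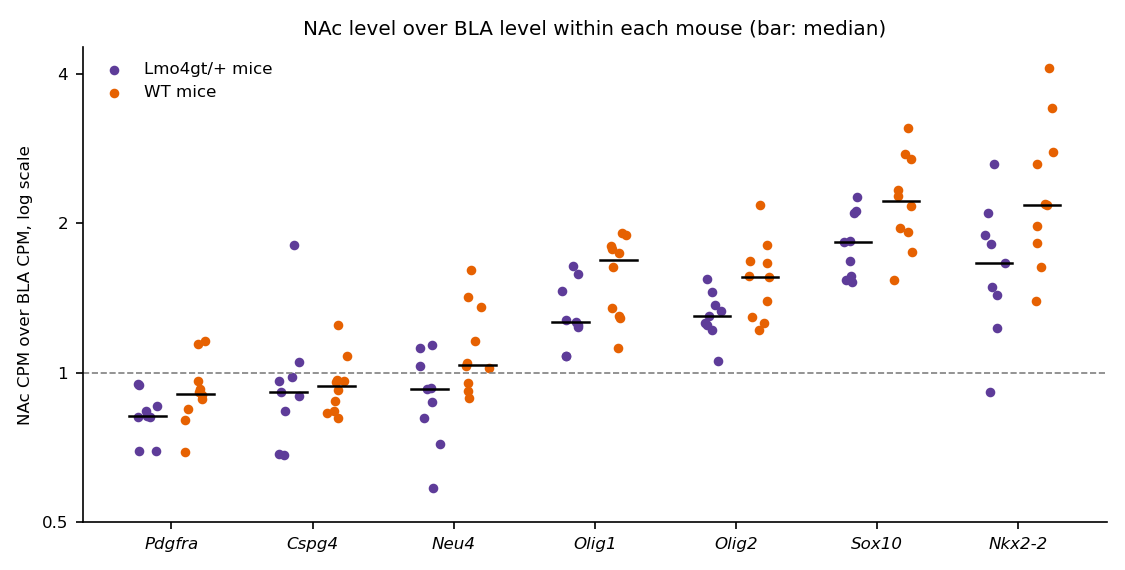
NAc level over BLA level of each gene within each mouse (ratio of CPM, log axis; 9 Lmo4gt/+ and 10 WT mice, bars are medians). Median ratios ran from 0.817 for Pdgfra to 1.84 for Sox10 in Lmo4gt/+ mice and from 0.908 for Pdgfra to 2.22 for Sox10 in WT mice, and the single Cspg4 point at 1.81 is Lmo4gt/+ mouse 149.

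The regions thus held the 7 genes in different proportions. Pdgfra made up 25.3 ± 2.25% of the reads on the 7 genes in Lmo4gt/+ NAc (SD, n = 9) and 24.3 ± 2.76% in WT NAc (n = 10), against 34.5 ± 1.58% in Lmo4gt/+ BLA (n = 9) and 34.03 ± 1.48% in WT BLA (n = 11). Sox10 made up 16.4 ± 1.42% in Lmo4gt/+ NAc and 16.97 ± 2.35% in WT NAc, against 10.1 ± 1.15% in Lmo4gt/+ BLA and 9.82 ± 0.673% in WT BLA. Per read of Pdgfra there were 0.503 to 0.783 Sox10 reads in Lmo4gt/+ NAc and 0.446 to 0.922 in WT NAc, against 0.260 to 0.401 in Lmo4gt/+ BLA and 0.235 to 0.336 in WT BLA. Every NAc library lay above every BLA library in this ratio. The ratio of Cspg4 to Pdgfra reads moved far less, with medians of 0.550 and 0.510 in Lmo4gt/+ and WT NAc against 0.532 and 0.521 in Lmo4gt/+ and WT BLA. These ratios describe the libraries and were not tested.

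Other genes of the lineage were counted in the same comparison. Of 15 mature oligodendrocyte genes, all 15 were higher in the NAc in both genotypes, with a median log2 fold change of 1.41 in Lmo4gt/+ and 1.54 in WT mice. The myelin gene Mog was at 1.52 ± 0.08 in Lmo4gt/+ mice (edgeR adjusted p = 8.11e-10) and 1.55 ± 0.12 in WT mice (edgeR adjusted p = 1.34e-07). The summed level of the 15 genes ran from 3707 to 7196 CPM in Lmo4gt/+ NAc and from 4348 to 9112 CPM in WT NAc, against 1663 to 2957 CPM in Lmo4gt/+ BLA and 1897 to 2716 CPM in WT BLA, and none of the 15 was at 0 in any library. Sox10, Olig1, Olig2 and Nkx2-2 moved in the direction of these genes in both genotypes, and Pdgfra moved in the other. Cspg4 was lower in WT mice and was not called in Lmo4gt/+ mice (-0.17 ± 0.14). With the log2 of this sum as a covariate, 0 of 7 members were called between the regions in either genotype by edgeR. The NAc and BLA ranges of the sum did not overlap, and the standard errors grew to between 0.21 and 1.01, so the part of mature oligodendrocyte RNA in the members' differences and region itself cannot be told apart in that fit.

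Among 10 genes of committed precursors, the stage between precursor and myelinating cell, 5 were higher and 2 lower in Lmo4gt/+ mice and 6 were higher and 2 lower in WT mice. Enpp6, which marks newly forming oligodendrocytes, had 6.14 to 28.3 CPM in Lmo4gt/+ NAc against 2.83 to 7.01 CPM in Lmo4gt/+ BLA, and 11.8 to 22.2 CPM in WT NAc against 2.77 to 5.85 CPM in WT BLA. Its log2 fold change was 1.52 ± 0.13 in Lmo4gt/+ mice (edgeR adjusted p = 1.12e-07) and 1.91 ± 0.11 in WT mice (edgeR adjusted p = 4.78e-10). Bcas1, another gene of that stage, was at 1.36 ± 0.09 in Lmo4gt/+ mice and 1.47 ± 0.13 in WT mice, both called. The kinase gene Fyn, which neurons use as well, was lower in the NAc, at -0.42 ± 0.05 in Lmo4gt/+ and -0.38 ± 0.04 in WT mice, both called.

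Of 16 other genes often listed for precursors, 2 were higher and 10 lower in Lmo4gt/+ mice, and 2 were higher and 11 lower in WT mice. Among the 6 with the smallest p in both genotypes were Xylt1, Sstr1, Lypd1, Susd5 and Sox5, of which Sstr1, Lypd1 and Sox5 are also used by neurons. Xylt1, which starts the glycosaminoglycan chains of proteoglycans, was at -1.29 ± 0.06 in Lmo4gt/+ and -1.39 ± 0.08 in WT mice. The somatostatin receptor gene Sstr1 was at -2.45 ± 0.21 in Lmo4gt/+ and -2.29 ± 0.18 in WT mice. The 2 higher genes were Vcan and Bcan, which encode chondroitin sulphate proteoglycans. Vcan was at 0.57 ± 0.09 in Lmo4gt/+ and 0.52 ± 0.10 in WT mice. All of these passed edgeR's threshold. Levels of the 6 glutamatergic and 7 medium spiny neuron genes differed between the regions by medians of -5.75 and 4.08 log2 units in Lmo4gt/+ mice and -4.28 and 3.66 in WT mice; their part in the precursor list was not tested.

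**Figure D3:**
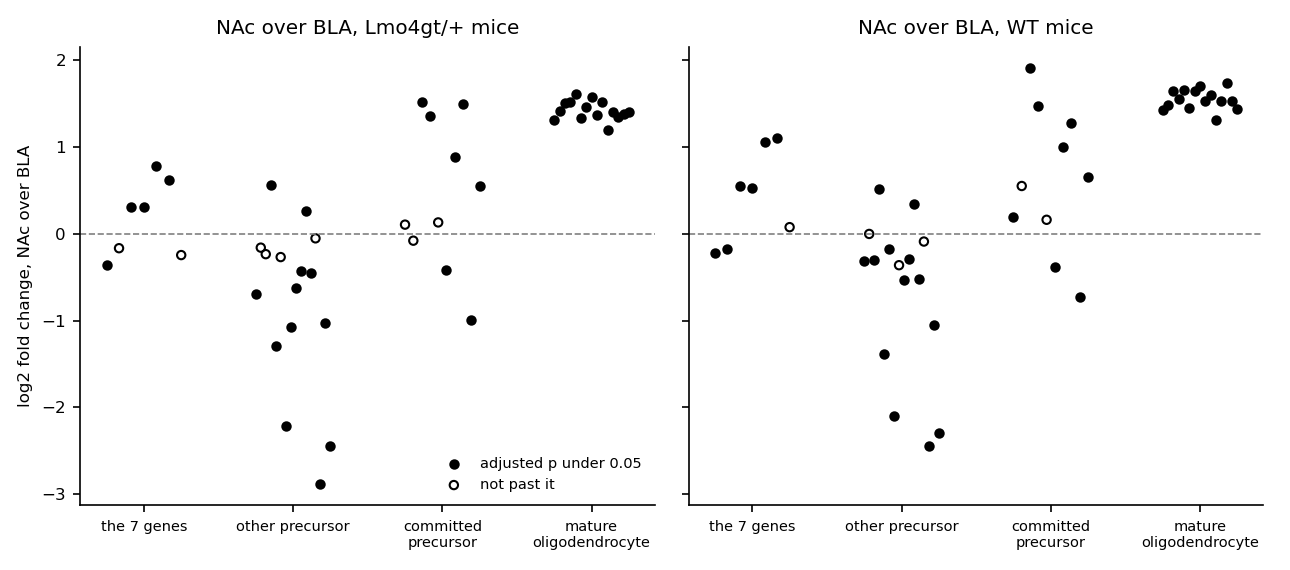
Log2 fold change of the NAc over the BLA (edgeR, mouse as a block) for the 7 genes and for 3 other lineage lists, in Lmo4gt/+ and in WT mice; each point is a gene, filled where adjusted p was under 0.05. All 15 mature oligodendrocyte genes lay between 1.19 and 1.74, the 7 genes lay between -0.36 and 1.11, and the other precursor genes reached -2.88.

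The PDGF ligand genes Pdgfa and Pdgfb were lower in the NAc in both genotypes. Pdgfa, the ligand that precursors depend on, had 20.3, 26.8 and 32.04 CPM in Lmo4gt/+ NAc against 29.9, 36.1 and 43.7 CPM in Lmo4gt/+ BLA. In WT mice it had 20.2, 24.6 and 29.7 CPM in the NAc against 33.2, 39.4 and 47.9 CPM in the BLA, ranges that did not overlap. Its log2 fold change was -0.63 ± 0.10 in Lmo4gt/+ mice (edgeR adjusted p = 9.31e-05) and -0.70 ± 0.06 in WT mice (edgeR adjusted p = 5.60e-08). Pdgfb was at -1.25 ± 0.08 in Lmo4gt/+ and -1.12 ± 0.07 in WT mice, both called. Pdgfc was at -0.16 ± 0.10 in Lmo4gt/+ mice, not called, and at -0.45 ± 0.12 in WT mice, called. Pdgfrb, the receptor of pericytes, was higher, at 0.39 ± 0.09 in Lmo4gt/+ and 0.47 ± 0.05 in WT mice, both called. Of 6 ligand and receptor genes besides Pdgfra, 5 were tested, with 1 higher and 2 lower in Lmo4gt/+ mice and 1 higher and 3 lower in WT mice.

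Genes that handle polysialic acid, the sugar that Neu4 trims, were counted as well. St8sia2, which builds polysialic acid, had 10.6 to 41.4 CPM in Lmo4gt/+ NAc against 1.49 to 5.15 CPM in Lmo4gt/+ BLA, and 9.25 to 29.3 CPM in WT NAc against 1.07 to 3.95 CPM in WT BLA. Its log2 fold change was 2.97 ± 0.33 in Lmo4gt/+ mice (edgeR adjusted p = 1.67e-05) and 3.23 ± 0.12 in WT mice (edgeR adjusted p = 7.80e-12). The lysosomal sialidase gene Neu1 was lower, at -0.68 ± 0.08 in Lmo4gt/+ and -0.52 ± 0.05 in WT mice, and Neu2 was higher, at 1.28 ± 0.34 in Lmo4gt/+ and 1.13 ± 0.24 in WT mice, all called. Over the 6 genes of this list, 2 were higher and 1 lower in each genotype, and the polysialic acid carrier gene Ncam1 was not called in either.

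Of 20 transcription factor genes that act in or beside the lineage, 6 were higher and 7 lower in Lmo4gt/+ mice, of 19 tested, and 7 were higher and 5 lower in WT mice, of 18 tested. Nkx6-2, a homeobox factor of myelinating cells, was at 1.88 ± 0.14 in Lmo4gt/+ and 1.84 ± 0.14 in WT mice. Sox8, a close relative of Sox10, was at 0.64 ± 0.07 in Lmo4gt/+ and 0.65 ± 0.06 in WT mice. Tcf4, a dimer partner of helix-loop-helix factors that neurons use widely, was at -1.20 ± 0.11 in Lmo4gt/+ and -1.15 ± 0.07 in WT mice. Id4, an inhibitor of such factors, was at 1.91 ± 0.09 in Lmo4gt/+ and 1.85 ± 0.11 in WT mice, and all 4 genes were called. Of 8 genes of dividing cells, 5 were tested. Of these, 2 were higher and 1 lower in Lmo4gt/+ mice, and 2 were higher and 0 lower in WT mice. The proliferation marker Mki67 was higher in the NAc at 1.59 ± 0.44 in Lmo4gt/+ and 2.45 ± 0.44 in WT mice, both called. Its levels were 0.535 to 10.4 CPM in the NAc and 0.116 to 1.36 CPM in the BLA. Top2a was at 1.40 ± 0.40 in Lmo4gt/+ and 2.85 ± 0.58 in WT mice, both called. Birc5, a mitotic gene of the same list, was lower in Lmo4gt/+ mice (-1.60 ± 0.52, called) and not called in WT mice.

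Other cells that use Pdgfra or Cspg4 were checked by their markers. Of 9 mural cell genes, 3 were higher and none lower in the NAc in each genotype, and their summed level ran from 197 to 251 CPM in Lmo4gt/+ NAc and from 198 to 245 CPM in WT NAc, against 173 to 227 CPM in Lmo4gt/+ BLA and 168 to 221 CPM in WT BLA. Of 9 meningeal fibroblast genes, 7 were tested, with 2 higher and 1 lower in Lmo4gt/+ mice and 4 higher and 1 lower in WT mice. Over the tested genes of this list the median log2 fold change was -0.06 in Lmo4gt/+ and 0.47 in WT mice. Dcn was the lower one, with 1.32 to 3.87 CPM in Lmo4gt/+ NAc against 8.42 to 38.9 CPM in Lmo4gt/+ BLA, and 0.735 to 3.13 CPM in WT NAc against 2.81 to 22.4 CPM in WT BLA. Lum was listed at 0 in 2 libraries of each NAc group and in 1 WT BLA library, and Slc22a6 in 1 library of each BLA group. The part of these cells in the region differences of Pdgfra and Cspg4 was not tested.

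The second comparison set Lmo4gt/+ mice against WT mice within each region. No member was called in either region: edgeR called 0 of 7 in the NAc, where 0.00588% of 16999 genes were called, and 0 of 7 in the BLA, where 0.00585% of 17087 genes were called. Lmo4 was the gene called in each. DESeq2 and limma voom called 0 of 7 in both regions as well. At an unadjusted p under 0.05 there were 3 members in the NAc, against 2.67% of all genes, and 2 in the BLA, against 4.11% of all genes.

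In the NAc the members with the smallest p were Olig2, Neu4 and Olig1, all toward lower values in Lmo4gt/+ mice. Olig2 averaged 25.8 ± 1.81 CPM (SD) in Lmo4gt/+ NAc and 30.4 ± 4.61 CPM in WT NAc, with a log2 fold change of -0.21 ± 0.07 (edgeR p = 0.0107, adjusted p = 0.9999). Neu4 averaged 8.28 ± 1.55 CPM in Lmo4gt/+ NAc and 10.2 ± 2.03 CPM in WT NAc, at -0.28 ± 0.12 (edgeR p = 0.0297, adjusted p = 0.9999). Olig1 averaged 93.7 ± 15.98 CPM in Lmo4gt/+ NAc and 110 ± 14.9 CPM in WT NAc, at -0.21 ± 0.10 (edgeR p = 0.0434, adjusted p = 0.9999). For each, the ranges of the genotypes overlapped, with 3 Lmo4gt/+ libraries under every WT library for Olig2 and Olig1 and 1 for Neu4. Pdgfra was at -0.04 ± 0.06 in the NAc, with a 95% interval of 0.887-fold to 1.07-fold. Sox10 was at -0.15 ± 0.13, Nkx2-2 at 0.12 ± 0.16 and Cspg4 at 0.18 ± 0.14 in the NAc. Without library 149 the Cspg4 value was -0.01 ± 0.07, so its positive sign rested on that library. The summed level of mature oligodendrocyte genes averaged 5717 ± 1184 CPM in Lmo4gt/+ NAc and 7011 ± 1554 CPM in WT NAc, with all 15 genes below 0 in log2 fold change and none called. Over 9 alternative fits, which include the fit with this sum as a covariate, Olig1 ran from -0.23 to -0.045 in the NAc. Olig2 ran from -0.22 to -0.13, and neither gene was called in any of them. Apart from that fit, the part of the sum in the Olig1 and Olig2 values was not tested.

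In the BLA all 7 members had log2 fold changes above 0, with a median of 0.10, against 0.00 over all genes. The largest was that of Nkx2-2, which had 2.51, 3.50 and 4.25 CPM in Lmo4gt/+ BLA and 1.76, 2.31 and 3.12 CPM in WT BLA. Of the 9 Lmo4gt/+ libraries, 6 lay above every WT library. The estimate was 0.55 ± 0.14 on the log2 scale, with a 95% interval of 1.204-fold to 1.79-fold, and did not pass over all genes (edgeR p = 0.000429, adjusted p = 0.998). Over the 8 alternative fits its value ran from 0.49 to 0.61 and its adjusted p from 0.386 to 0.99999. Pdgfra averaged 94.4 ± 6.99 CPM in Lmo4gt/+ BLA and 88.4 ± 7.68 CPM in WT BLA, at 0.10 ± 0.05 (edgeR p = 0.0416, adjusted p = 0.998). Sox10 was at 0.13 ± 0.06, Cspg4 at 0.11 ± 0.06, Neu4 at 0.04 ± 0.08, Olig2 at 0.02 ± 0.07 and Olig1 at 0.01 ± 0.06. For Olig1 and Olig2 the 95% intervals in the BLA ended at 1.11-fold and 1.13-fold higher, and their mean levels in the genotypes differed by under 1 CPM.

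Whether the effect of genotype differed between the regions was tested in the 19 mice with both punches. edgeR called 0 of 18325 genes for this interaction, which is 0% of those tested and 0 of 7 members, with 2.96% of all genes at an unadjusted p under 0.05. DESeq2 and limma voom called 0 genes too. Of the members, 5 of 7 had an unadjusted p under 0.05, each with a more negative genotype effect in the NAc than in the BLA. These were Nkx2-2 (-0.47 ± 0.21), Neu4 (-0.31 ± 0.13), Sox10 (-0.26 ± 0.12), Olig1 (-0.23 ± 0.10) and Olig2 (-0.21 ± 0.10), with edgeR p between 0.0297 and 0.0429 and adjusted p = 0.9999 for each. The same values say that the NAc over BLA difference of the 4 transcription factor genes was smaller in Lmo4gt/+ than in WT mice, again short of the threshold. Pdgfra was at -0.13 ± 0.09 and Cspg4 at 0.02 ± 0.15, with the sign of Cspg4 turning to -0.11 ± 0.09 without mouse 149. The member values are not independent, since Olig1 varied with Olig2 (r = 0.69) and Sox10 (r = 0.81) across NAc libraries. All 15 mature oligodendrocyte genes also lay below 0 in the interaction, with a median of -0.11 and 0 called. Their part in the member values was not tested.

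**Figure D4:**
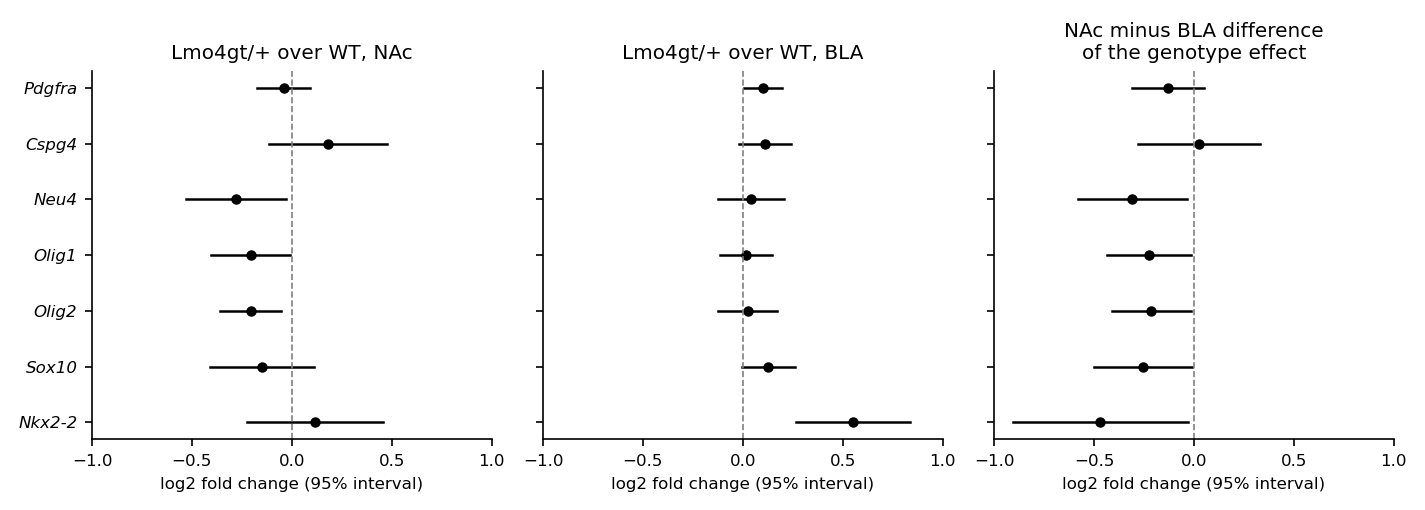
Log2 fold change of Lmo4gt/+ over WT for each gene in the NAc and in the BLA, and the difference between these effects (NAc minus BLA); points are edgeR estimates and lines their 95% intervals. In the BLA all 7 points lie above 0 with Nkx2-2 farthest at 0.55, in the NAc 5 of 7 lie below 0, and no gene was called in any panel.

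The mice within a region were then compared to see which members varied together. Deviations of log2 TMM-scaled CPM from the genotype means were correlated over the 19 NAc or 20 BLA libraries. Permutation was within genotype (100000 resamples, two-sided), with adjustment over the 42 member pairs of both regions. In the NAc, 4 of 21 pairs were called, all positive, and in the BLA 0 of 21 were called, with 2 of 21 at an unadjusted p under 0.05. The share of pairs of other genes past the same threshold was not computed, so these counts do not set the members apart. Pdgfra and Cspg4, the pair that marks the precursor stage, had Pearson's r = 0.79 (permutation p = 2e-05, adjusted p = 0.00084) and Spearman's rho = 0.92 (permutation p = 1e-05, the smallest possible, adjusted p = 0.00042) in the NAc. Without the 2 libraries farthest from the Pdgfra median r was 0.84, and without library 149 it was 0.86. In the BLA the same pair had r = 0.12 and rho = 0.11 (permutation p = 0.615 and 0.665, adjusted p = 0.861 and 0.951). The difference between the regions' correlations was not tested. Both genes are long, with 6.74 kb of exon for Pdgfra and 8.05 kb for Cspg4. The median deviation of genes over 6 kb ran from -0.10 (library 159) to 0.08 log2 units (library 147) over the NAc libraries. Library 159 also had the lowest Cspg4 level of Lmo4gt/+ NAc (33.8 CPM). Library 147, at the other end, had 43.7 CPM of Cspg4 and 78.1 CPM of Pdgfra, near the group medians of 44.7 and 78.7 CPM. The part of exon length in this relation was not tested.

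Sox10 and Olig1 had r = 0.81 (permutation p = 5e-05, adjusted p = 0.00105) and rho = 0.80 (permutation p = 0.00011, adjusted p = 0.00231) in the NAc, and r = 0.78 without the 2 farthest libraries. Olig1 and Olig2, whose genes are neighbours, had r = 0.69 (permutation p = 0.00021, adjusted p = 0.00294) and rho = 0.71 (permutation p = 0.00128, adjusted p = 0.0179), and r = 0.76 without the 2 farthest. Cspg4 and Nkx2-2 had r = 0.63 (permutation p = 0.00334, adjusted p = 0.0351) and rho = 0.53 (permutation p = 0.0245, adjusted p = 0.227), but r = 0.36 without the 2 farthest libraries, so that relation rested on those. Olig2 and Sox10 had r = 0.60 in the NAc, short of the threshold (permutation p = 0.00597, adjusted p = 0.0501). Pdgfra had r = 0.15 with Olig1, 0.04 with Olig2 and 0.24 with Sox10 in the NAc, none called. Cspg4 had r = 0.19 with Olig1, 0.21 with Olig2 and 0.44 with Sox10 there, none called.

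The members were set in the same way against the summed levels of 4 lists, in a family of 56 relations over both regions. Here too the share of other genes past the threshold was not computed. In the NAc, the mature oligodendrocyte sum varied with Sox10 at r = 0.85 (permutation p = 3e-05, adjusted p = 0.00084) and rho = 0.83 (permutation p = 9e-05, adjusted p = 0.00252). It varied with Olig1 at r = 0.82 (permutation p = 3e-05, adjusted p = 0.00084) and rho = 0.85 (permutation p = 2e-05, adjusted p = 0.00112). Without the 2 farthest libraries these were r = 0.80 and r = 0.82. Pdgfra did not follow that sum, with r = 0.04 and rho = -0.09 (permutation p = 0.884 and 0.714, adjusted p = 0.936 and 0.953). In the BLA, Sox10 varied with the mature sum at r = 0.72 and rho = 0.70 (permutation p = 0.00085 and 0.00112, adjusted p = 0.00793 and 0.0125), but at r = 0.56 without the 2 farthest libraries, which was not called (adjusted p = 0.131).

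The sum of the other precursor genes varied in the NAc with Cspg4 (r = 0.85, rho = 0.66), Nkx2-2 (r = 0.79, rho = 0.75) and Pdgfra (r = 0.67, rho = 0.59), with permutation p = 0.00018, 7e-05 and 0.00366 for r and adjusted p = 0.00252, 0.00131 and 0.0256. The permutation p for rho were 0.00395, 0.00052 and 0.013, with adjusted p = 0.0277, 0.00971 and 0.0708. Without the 2 farthest libraries r was 0.59, 0.67 and 0.49, and none was called (adjusted p = 0.131, 0.067 and 0.220 by permutation). Without library 149 Nkx2-2 (r = 0.73, permutation adjusted p = 0.00989) and Cspg4 (r = 0.68, permutation adjusted p = 0.0253) were called and Pdgfra was not (r = 0.54, permutation adjusted p = 0.145). In the BLA the same sum went the other way with Olig1, at r = -0.54 (permutation p = 0.0128, adjusted p = 0.0662) and rho = -0.71 (permutation p = 0.00088, adjusted p = 0.0123), so that rho passed the threshold and r did not. It had r = -0.56 and rho = -0.55 with Sox10 in the BLA (permutation p = 0.0145 and 0.0139, adjusted p = 0.0677 and 0.0708), neither past the threshold. Without the 2 farthest BLA libraries r was -0.49 for Olig1 and -0.55 for Sox10. The sum of the other precursor genes adds CPM without weights, so its most abundant genes count most. The highest average log2 CPM in this list was that of Lypd1 in the BLA (9.64) and Ptprz1 in the NAc (8.24). The part of other cells that use these genes was not tested. In the BLA the mural sum varied with Olig1 (r = 0.71, rho = 0.65) and Sox10 (r = 0.69, rho = 0.67), with permutation p = 0.0007 and 0.00111 for r, adjusted p = 0.00784 and 0.00888, and permutation p = 0.00385 and 0.00243 for rho, adjusted p = 0.0277 and 0.0227. Both held without the 2 farthest libraries (r = 0.67 and 0.77). In the NAc the mural sum had r = 0.78 and rho = 0.48 with Cspg4. These did not pass the threshold (permutation p = 0.013 and 0.0427, adjusted p = 0.0662 and 0.178). Without library 149 that r was 0.29. With Pdgfra in the NAc the mural sum had r = 0.41 and rho = 0.25, not called (permutation adjusted p = 0.346 and 0.681). The meningeal sum was called with no member in either region.

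**Figure D5:**
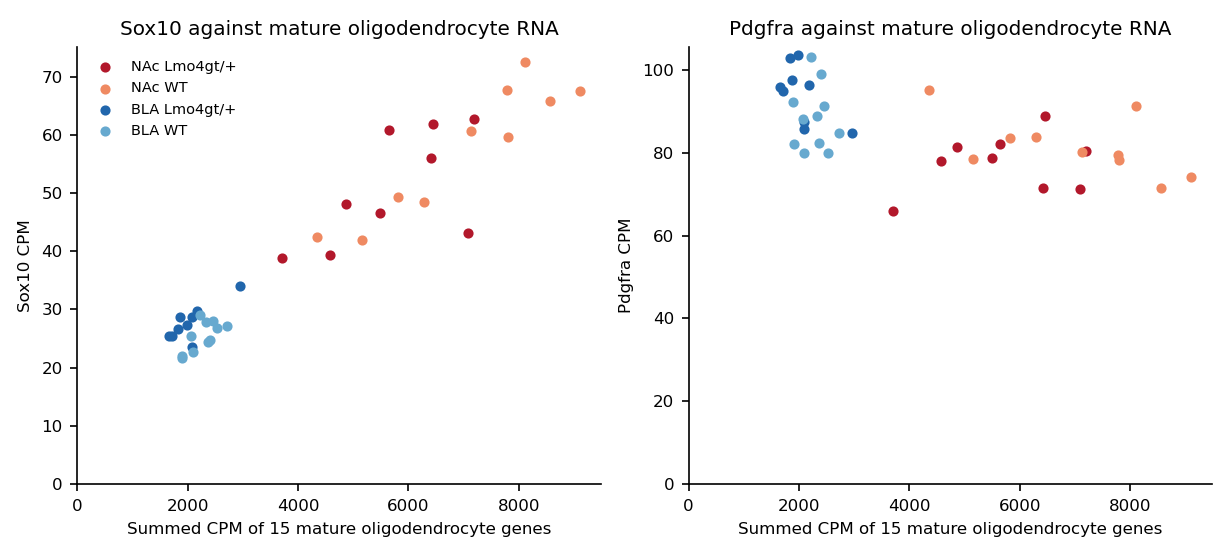
Sox10 and Pdgfra level in each library (CPM) against the summed level of 15 mature oligodendrocyte genes in the same library (CPM), coloured by region and genotype. Within the NAc, Sox10 was higher where the sum was higher (r = 0.85 for deviations from genotype means) and Pdgfra was not (r = 0.04), and the sums of the regions did not overlap.

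The genes whose pattern was most like each member's were ranked among 13627 genes by Pearson's r of deviations from the 4 group means over the 39 libraries, which share depth and library quality; these are descriptions with no test. Sox10 was most like Plekhb1 (r = 0.88), Prr18 (0.88) and Ndrg1 (0.88), and Olig1 was most like Rab31 (0.81), Pllp (0.80) and Qdpr (0.76). Without NAc library 149 the top 3 of Sox10 were these same genes in another order. Olig2 was most like Metrn (0.64), Serpine2 (0.61) and Rab31 (0.60), and Nkx2-2 was most like Thsd7b (0.68), Rgma (0.62) and Tcf7l2 (0.60). Pdgfra was most like Pitpnm1 (0.69), Tbc1d9b (0.67) and Sdc3 (0.67), and without library 149 like Thbs1 (0.65), Lrig1 (0.64) and Erlin2 (0.63), so the 3 genes named differ with that library. Cspg4 was most like Plxnb1 both with it (0.88) and without it (0.82). Neu4 had Srxn1 first with it (0.61) and Dse without it (0.56).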

How the data were processed

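The authors deposited whole-number read counts per Ensembl gene, 1 table for each library. The submitters' processing notes name the build mm9 and the tools HTSeq 0.11.1, HISAT2, DESeq2 and MultiQC 1.7. Settings, strand included, are not given there. HTSeq summary lines that name no gene held 24.74% to 38.06% of a library and entered neither library sizes nor tests. Of 51826 identifiers per table, 32708 had a name in GENCODE vM1 and held 98.3% of the gene counts. Their versions differ from that annotation, so gene limits during counting could differ from those printed.

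Levels are CPM over the sum of gene counts. Tests used edgeR 4.0.16 in R 4.3.3 with TMM factors, filterByExpr at a minimum count of 10 by group, robust glmQLFit, two-sided quasi-likelihood tests and Benjamini-Hochberg adjustment at 0.05. All adjusted p-values for genes are edgeR's unless another tool is named. Alternatives were RLE factors, no filter, DESeq2 1.42.0, limma voom 3.58.1, a mature oligodendrocyte covariate, 1 model of all 39 libraries, no mouse block, and leaving out libraries. Correlations and likeness ranks used log2(CPM + 0.5) of CPM scaled by TMM factors, with SciPy 1.17.1 and Python 3.11.15. The edgeR and correlation steps were tested on simulated data.

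Samples were grouped by title. Title numbers were read as mouse numbers, which pairs the punches; they make the 11 WT and 9 Lmo4gt/+ mice of the design text. Deviations of same-numbered punches correlated at a median r of 0.08 across genes (19 pairs, 8 over 0.1), against -0.01 for other pairs of the same genotype. The punches come from separate mice within each group. No 2 libraries held identical counts. Members, lists and tests were chosen with earlier results of these data known. All 7 members are described; of the other lists, up to 4 genes a comparison with the smallest p were to be named, and others named were chosen for their role with values seen. Promoter sequences are from RefSeq (GRCm38.p6); of 137 list genes 1 had no match.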

Additional observations from a re-analysis of the deposited data

Results flagged for a closer look

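Of 21 groups of 9 or 10 libraries, 1 held a library far from the others: Cspg4 in Lmo4gt/+ NAc, where mouse 149 had 82.4 CPM and the next library 46.4 CPM. The gap was 0.741 of the group's range, against a limit of 0.493 for 9 values. Chance takes about 1 of 20 groups past that limit; how often it gives a gap as large as this one was not computed. The same library had the lowest Neu4 level of its group (5.03 CPM) and the highest Sox10 (62.7 CPM) and Nkx2-2 levels (7.72 CPM). In the BLA the same mouse had 45.5 CPM of Cspg4, inside the range of its group. The part of RNA quality in these values was not tested.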

How the results depend on the processing

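Of the summary values recomputed under an alternative, 81 stayed within 1.5 times and 11 did not. Without the count filter, with DESeq2 and with all 39 libraries in 1 model, 2 genes in place of 1 were called for genotype in the NAc, and 2 in place of 1 in the BLA; neither was a member. With the mature oligodendrocyte sum as a covariate, 0 members were called between the regions in both genotypes, and 1 gene in Lmo4gt/+ and 1934 genes in WT mice in all. In that fit the direction turned for Cspg4 (0.26), Olig1 (-0.20), Olig2 (-0.0743) and Sox10 (-0.0477) in Lmo4gt/+ mice and for Pdgfra (0.11), Olig1 (-0.21) and Sox10 (-0.11) in WT mice, and for genotype for Sox10 in the NAc (0.085) and Neu4 in the BLA (-0.00411); standard errors for region were 0.21 to 1.01. Nkx2-2 in the NAc turned to -0.00237 without libraries 122, 134 and 149. Cspg4 turned to -0.00976 in the NAc without library 149 and to -0.11 in the interaction without mouse 149; the cause was not tested. Of 28 relations with list sums in the NAc, 2 in place of 5 were called without the 2 farthest libraries.

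Without the mouse as a replicate block, 5 members and 9095 genes were called between the regions in Lmo4gt/+ mice and 6 members and 9900 genes in WT mice, and 0 genes in the interaction; the block changed no call of a member. Of the member values under an alternative, 278 kept direction and side of the threshold, 5 came to pass it, 6 no longer did and 12 turned. Between 21255934 and 51021670 counts per library, Nkx2-2, with 50 to 269 reads, was measured least precisely.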
